A study of Mus musculus with 4 samples.

Results

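The Notch pathway was described in cultured mouse alveolar type II cells through 10 genes, chosen by name: the receptors Notch1, Notch2 and Notch3, the ligands Jag1, Jag2 and Dll1, the targets Hes1, Hey1 and Nrarp, and the receptor-modifying enzyme gene Lfng. All 10 were found by Entrez identifier among the 28096 genes of each table. The 4 polyA RNA-seq libraries carry a single genotype label. The labels name the cells as alveolar type II cells sorted from lung as EpCAM+ and negative for CD24, CD45, CD31 and podoplanin. They were then grown in 100% matrigel in BEGM, an airway epithelial medium, with 100 nM 4OHT (the active form of tamoxifen) for 4 days and without it for 1 day more. The series lists 3 genotypes of 4 mice, which differ in their Etv alleles: none named, Etv5 loxp/loxp, or Etv4 KO/KO with Etv5 loxp/loxp. All 3 share RosaCreERT2, a Cre that acts in all cell types once 4OHT is given. The single label of the libraries reads KRasEtv wt. By its wording it fits the genotype with no Etv allele named. The labels do not state this match, and give no age or sex. Only this label was analysed here, so there was no contrast between conditions. Levels and their spread over the 4 libraries, numbered in accession order, are what is described. The labels do not tie libraries to single mice, so p-values measure the spread between these libraries, which may be technical.

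Notch receptors are surface proteins that bind Jagged and Delta ligands on a neighbouring cell. Binding lets an ADAM protease and then gamma-secretase cut the receptor, and the freed intracellular domain enters the nucleus, where it joins RBPJ and a Mastermind protein on DNA and turns on genes such as those of the Hes and Hey repressors. In the mouse lung the pathway is known for the choice between secretory and ciliated fates in the airway.

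Total counts were 12133251 to 13591876 reads per library, and mitochondrial ribosomal RNA took 19.6% to 38.9% of them. Levels are the authors' nRPKM, a read count scaled for gene length and library size. The cells expressed the markers of type II cells: 12 of 12 averaged 1 nRPKM or more, led by Sftpc and Sftpb, with a list median of 233 nRPKM. Library 1 stood apart, with type II markers 0.71 log2 units below their mean over the libraries (deviation -0.71) and markers of transitional epithelium 0.67 above. Of the 10 type I markers 9 reached 1 nRPKM, led by Aqp5 and Ager, and of the 9 transitional markers 9 did, led by Clu and Krt19. In RNA of a whole culture, fewer cells of a type and less RNA per cell cannot be told apart.

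Promoter sequence for 8 of the 10 genes was taken from RefSeq (GRCm38.p6), as the 250 bases before the annotated start. Hes1 and Hey1 had no promoter entry, so Nrarp was the only one of the targets that could be searched. The letters GTGGGAA, the core recognised by RBPJ, were searched on both strands, as was CCGGAA, a longer core of ETS factor sites. GTGGGAA itself also holds GGAA, the shortest ETS core, but not CCGGAA, so a match to 1 of these 2 words is not a match to the other. The first occurred in 1 of the 9 promoters (Dll1 has 2), that of Lfng, against 5.42% of the 32851 promoters in the table. The second occurred in none of the 9, against 12.03% of all promoters. These matches are descriptions of the letters in these windows. The promoters of Lfng (chr5:140607091-140607340, plus strand), of Nrarp (chr2:25180508-25180757, plus strand) and of Notch2 (chr3:98013288-98013537, plus strand) are shown because they belong to the one gene with the RBPJ letters, to a target with the same order of libraries as Hes1, and to the most abundant receptor. Capitals mark GTGGGAA, which begins 109 bases before the start of Lfng.
Lfng: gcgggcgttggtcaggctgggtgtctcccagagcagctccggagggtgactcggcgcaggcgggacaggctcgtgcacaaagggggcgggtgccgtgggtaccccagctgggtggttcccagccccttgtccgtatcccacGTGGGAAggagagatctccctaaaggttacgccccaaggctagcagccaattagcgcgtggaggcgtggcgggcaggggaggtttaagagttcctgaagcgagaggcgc
Nrarp: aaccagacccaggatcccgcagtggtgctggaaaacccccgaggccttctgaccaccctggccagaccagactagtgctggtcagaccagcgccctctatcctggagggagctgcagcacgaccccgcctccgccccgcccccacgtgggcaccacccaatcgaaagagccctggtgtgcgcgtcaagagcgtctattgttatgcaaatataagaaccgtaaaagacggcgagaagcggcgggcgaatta
Notch2: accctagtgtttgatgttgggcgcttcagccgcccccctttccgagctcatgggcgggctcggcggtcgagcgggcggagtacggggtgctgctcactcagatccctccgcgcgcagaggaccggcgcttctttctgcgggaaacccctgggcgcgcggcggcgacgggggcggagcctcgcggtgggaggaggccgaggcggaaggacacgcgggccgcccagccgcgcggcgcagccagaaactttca

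The cells carried Notch2 as their main receptor transcript, Jag1 as their main ligand transcript and Hes1 as the most abundant target, while Hey1, Dll1 and Lfng were at the edge of detection. An average of 1 nRPKM or more was found for 5 of the 10 genes (Hes1, Notch2, Jag1, Notch1 and Nrarp). For comparison, 42.4% of all genes reached it. The median of the 10 was 1.202 nRPKM against 0.345 for all genes.

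**Figure D1:**
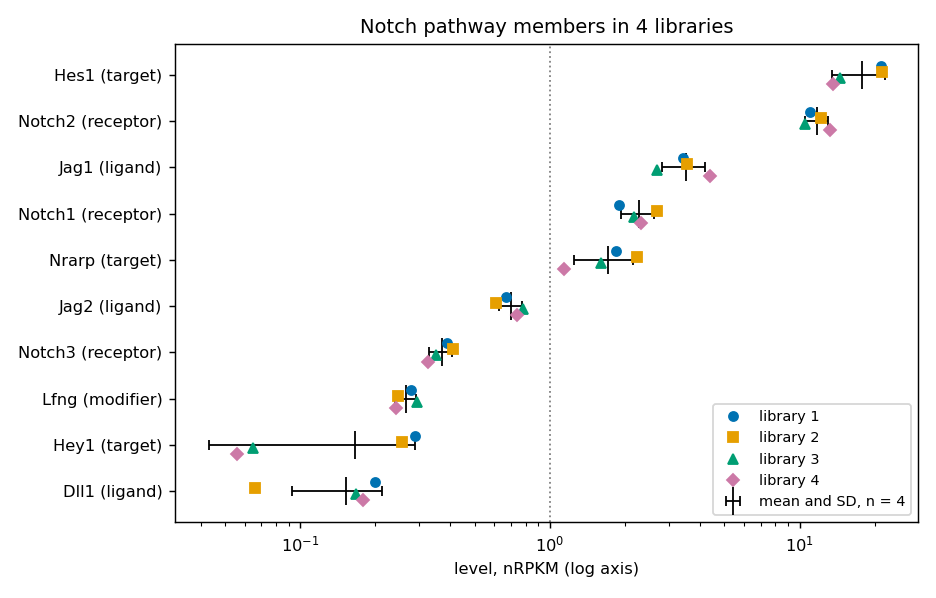
Level of each of the 10 genes in nRPKM (log axis) in the 4 libraries (coloured symbols), with the mean and SD in black and a dotted line at 1 nRPKM. Hes1 and Notch2 lie above 10 nRPKM in every library, and Lfng, Hey1 and Dll1 lie below 0.3 in every library.

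Notch2 (Entrez 18129), a receptor for Jagged and Delta ligands, was measured at 10.99, 12.1, 10.5 and 13.3 nRPKM in the libraries 1 to 4, on 2264 to 2353 reads each. Its mean of 11.7 ± 1.24 nRPKM (SD, n = 4) lay above that of 88.1% of all genes, and the libraries differed by no more than 1.26-fold. Notch1 (18128), the receptor best known from T cells and endothelium, had 1.89, 2.69, 2.16 and 2.33 nRPKM from 360 to 454 reads, with a mean of 2.27 ± 0.336. Library 1 was lowest for Notch1 and library 2 highest. Notch3 (18131), which in many tissues marks pericytes and smooth muscle, had 0.389, 0.411, 0.349 and 0.324 nRPKM on 63, 58, 58 and 42 reads. The levels of the 3 receptors did not overlap over the libraries.

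Notch2 exceeded Notch1 by 5.21 ± 0.639 times (SD, n = 4), and by 1.96 ± 0.14 on the scale of log2(nRPKM + 1). It was higher in 4 of 4 libraries (exact permutation test by sign flips, two-sided, p = 0.13, adjusted p = 0.13 over 6 pairs of genes). This is the smallest p that 4 libraries allow, so none of these comparisons could reach 0.05. Notch1 exceeded Notch3 by 6.20 ± 0.977 times, or 1.25 ± 0.14 on the same log2 scale, in 4 of 4 libraries and with an equal p in the exact permutation test. Of the summed level of the 4 Notch receptors (13.02 to 15.98 nRPKM per library), Notch2 made up 82.5%, 79.2%, 80.6% and 83.1% in libraries 1 to 4. Notch1 took 15.7% ± 1.62 and Notch3 2.58% ± 0.382 (SD, n = 4). Notch4, the endothelial receptor, rested on 2 to 10 reads. Without library 1 the mean share of Notch2 was 80.9% in place of 81.3%. The summed level of the type II markers differed 2.17-fold over the same libraries. That sum was 10285 nRPKM in library 1, the lowest, and 22346 in library 3, the highest.

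Mesenchymal markers, whose cells are known for Notch3, were present, and endothelial markers, whose cells are known for Notch1, were near 0. Of the 10 mesenchymal markers 4 had a mean of at least 1 nRPKM, led by Dcn and Col1a1, and their summed level was 29.7, 18.4, 6.13 and 13.6 nRPKM in libraries 1 to 4. The fibroblast gene Dcn had 14.1 nRPKM in library 1, above Notch2 there, and 5.52 ± 5.92 over the libraries (SD, n = 4), and Col1a1 had 4.59 ± 2.19. The other 6 markers, which include Acta2 of smooth muscle and Rgs5, Pdgfrb and Cspg4 of pericytes, averaged 0.0467 to 0.554 nRPKM, with Acta2 at 0.476 ± 0.0978. The libraries differed 1.27-fold for Notch3 and 4.84-fold for the mesenchymal sum, and both were higher in libraries 1 and 2 than in libraries 3 and 4. The part of mesenchymal cells in the level of Notch3 was not tested. All 10 endothelial markers were below 1 nRPKM, led by Eng and Flt1, Sox17 had no read, and the sum of the list was 0.391 to 1.27 nRPKM.

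Jag1 (16449), a Jagged ligand, was measured at 3.41, 3.55, 2.70 and 4.37 nRPKM in the libraries 1 to 4, on 299 to 377 reads, with a mean of 3.51 ± 0.685 (SD, n = 4). Library 3 was the lowest and library 4 the highest, 1.62-fold apart. Jag2 (16450), a Jagged ligand made by airway basal cells, had 0.666, 0.611, 0.777 and 0.742 nRPKM on 55, 44, 66 and 49 reads. Dll1 (13388), a Delta ligand, had 0.200, 0.0657, 0.167 and 0.179 nRPKM on 14, 4, 12 and 10 reads. For Dll1 the exact 95% Poisson intervals of the reads ran from 7.65 to 23.5 in library 1 and from 1.09 to 10.2 in library 2. These overlapped, which does not show that the levels were equal.

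Jag1 exceeded Jag2 by 5.07 ± 1.12 times and by 1.40 ± 0.24 on the scale of log2(nRPKM + 1), in 4 of 4 libraries (exact permutation test by sign flips, two-sided, p = 0.13, adjusted p = 0.13). Jag1 exceeded Dll1 by 1.96 ± 0.23 on that scale, with the same exact permutation p, and by 16.1 to 54.0 times in single libraries. Of the summed level of 5 ligands that activate the receptors (3.68 to 5.34 nRPKM), Jag1 made up 79.4% ± 4.55, Jag2 16.2% ± 3.34 and Dll1 3.52% ± 1.44 (SD, n = 4). Dll4, an endothelial ligand, had 1 to 3 reads per library. Dll3 had no read in any library, where 3 reads, the limit that a count of 0 allows, would be 0.221 to 0.247 CPM (counting error only). Basal cell markers, led by Krt5 and Krt6a, had a summed level of 158, 110, 22.2 and 51.5 nRPKM in libraries 1 to 4, and 5 of 7 had a mean of at least 1. Jag2 was highest in library 3, where that sum was lowest, but its levels varied less than counting alone would give. The part of basal cells in the level of Jag2 was not tested. Neuroendocrine markers, of a cell type known for Delta ligands, were at least 1 nRPKM for 1 of 7 (Uchl1, followed by Ddc), with a sum of 1.40 to 3.42 nRPKM.

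Hes1 (15205), a bHLH repressor and the classical Notch target, was the highest of the 10 genes. It was measured at 21.2, 21.5, 14.5 and 13.7 nRPKM in the libraries 1 to 4, on 628, 553, 442 and 323 reads. Libraries 1 and 2 were alike, and both lay above libraries 3 and 4. Its mean of 17.7 ± 4.20 nRPKM (SD, n = 4) lay above that of 92.3% of all genes. Nrarp (67122), an ankyrin-repeat protein that damps Notch signalling in a feedback loop, had 1.84, 2.23, 1.61 and 1.14 nRPKM on 97, 102, 87 and 48 reads. Like Hes1 it peaked in library 2 and was lowest in library 4. Reads of Nrarp cannot be told from those of an antisense gene, Gm38287, which covers 79.4% of its exon bases in GENCODE M21, since strand use is not given in the sources used here. Hey1 (15213), a bHLH repressor typical of blood vessels, had 0.289, 0.255, 0.0650 and 0.0557 nRPKM on 13, 10, 3 and 2 reads. Its Poisson intervals, 6.92 to 22.2 reads in library 1 and 0.242 to 7.22 in library 4, overlapped only at their ends. Such overlap does not show that the levels were equal.

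Hes1 exceeded Nrarp by 10.5 ± 1.42 times and by 2.78 ± 0.16 on the scale of log2(nRPKM + 1), in 4 of 4 libraries (exact permutation test by sign flips, two-sided, p = 0.13, adjusted p = 0.13). The ratio of the 2 targets ran from 9.04 to 11.97. Hes1 exceeded Hey1 by 3.98 ± 0.18 on that scale, with the same exact permutation p, and by 73.4 to 245 times in single libraries. Where Hey1 had at least 10 reads, in libraries 1 and 2, this log2 difference was 4.13. The promoter of Nrarp shown above holds no GTGGGAA within 250 bases.

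All 3 targets were higher in libraries 1 and 2 than in libraries 3 and 4. Notch3 had the same order within a narrow range, with a spread below that of counting alone, so 4 of the 10 genes had it. This order was singled out after the values were seen. Among the 13156 genes tested for spread, a set that leaves out Hey1, 17.1% had it. Leukocyte markers had it too: Cd68 and Fcer1g led the list, the 5 of 10 with a mean of at least 1 nRPKM all had the order, and the summed level was 73.9, 65.2, 28.0 and 20.7 nRPKM in libraries 1 to 4. The defining leukocyte gene Ptprc had 0.422 ± 0.193 nRPKM (SD, n = 4). Basal and mesenchymal markers followed the order for 4 of 5 and 4 of 4 genes at 1 nRPKM or more, club cell markers for 2 of 6 and type II markers for 0 of 12. Transitional markers followed it for 3 of 9, type I markers for 1 of 9, ciliated markers for 0 of 2 and neuroendocrine markers for 0 of 1. Club cell markers, led by Scgb1a1 and Cbr2, had a sum of 259 nRPKM in library 3 to 1194 in library 2, and of the 9 ciliated cell markers 2 reached 1 nRPKM, Dynlrb2 and Ccdc39. The part of these cells in the levels of the targets was not tested. Notch1 and Notch2 did not share the order of the targets: Notch2 was highest in library 4, where Hes1, Nrarp and Hey1 were lowest. In TPM, whose total includes the mitochondrial ribosomal RNA of each library, the targets kept the order. Notch2 and Jag1, however, were highest in library 1 and Notch1 in library 3, with the lowest Notch1 value in library 4.

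**Figure D2:**
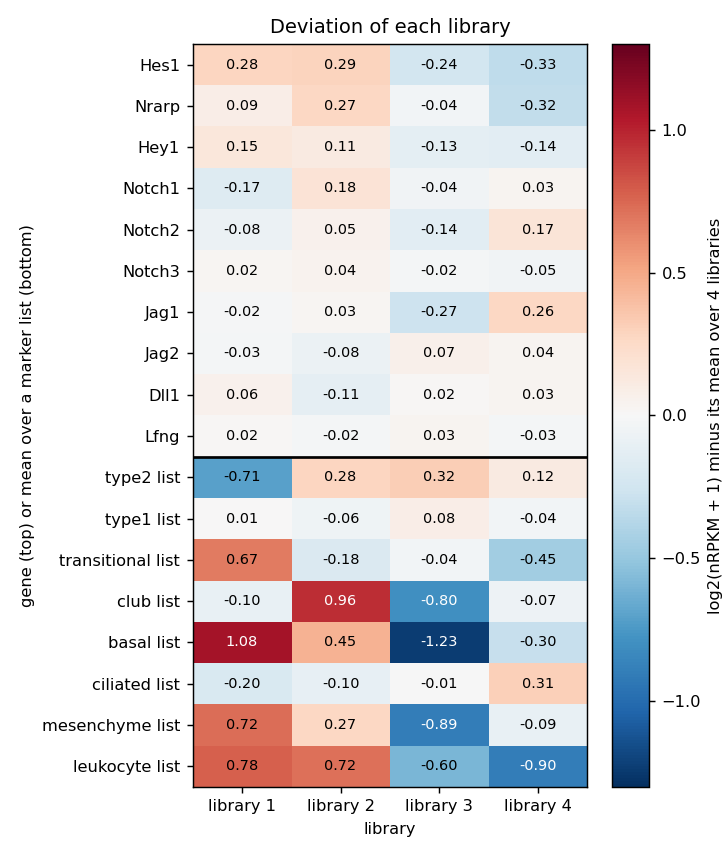
Deviation of log2(nRPKM + 1) in each library from its mean over the 4 libraries, for the 10 Notch genes (top) and, as a mean over genes at 1 nRPKM or more, for lists of cell type markers with more than 1 such gene (bottom). Hes1 lies at 0.28 and 0.29 in libraries 1 and 2 and at -0.24 and -0.33 in libraries 3 and 4, and the leukocyte list has the same signs with larger sizes.

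Lfng (16848), the lunatic fringe glycosyltransferase that tunes receptors towards Delta ligands, had 0.279, 0.247, 0.293 and 0.242 nRPKM on 13, 10, 14 and 9 reads. Its coefficient of variation of 9.36% was below the 29.5% that counting alone would give at this depth. In the order of mean levels, Hes1 was followed by Notch2, Jag1, Notch1, Nrarp, Jag2, Notch3, Lfng, Hey1 and Dll1. Hes1 and Notch2 were close, with a log2 difference of 0.54 ± 0.38 and nearly equal levels in library 4 (13.7 and 13.3 nRPKM). Notch1 and Nrarp overlapped over the libraries, and Hey1 overlapped with Lfng above it and with Dll1 below it, on 2 to 14 reads per library for these 3 genes. Lfng lay above Dll1 in 4 of 4 libraries. Other neighbours in this order did not overlap. Jag1 and Notch1 nearly met, with the lowest Jag1 level at 2.6956 nRPKM (library 3) and the highest Notch1 level at 2.6948 (library 2).

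None of the Notch genes was called as varying between libraries beyond the trend of all genes. Of the 10 genes, 7 had enough reads to be tested (Dll1, Hey1 and Lfng did not pass the filter on low counts). In edgeR's quasi-likelihood fit, 0 of 7 were called at an adjusted p of 0.05, against 2 of 13156 genes tested, or 0.0152%. None of the 7 had an unadjusted p under 0.05, against 5.13% of all tested genes, and 0 of 7 were dispersion outliers in DESeq2, against 0.471%. Without the filter 0 of 10 were called in edgeR, against 0.321%. Hes1 had the largest ratio of its dispersion to the trend, 1.58 (adjusted p = 0.997, same edgeR test), and Nrarp followed with 1.04 (adjusted p = 0.997, edgeR). The median ratio was 0.533 over the 7 genes and 0.838 over all tested genes. The common biological coefficient of variation was 24.9%. With 4 libraries this does not show that levels were equal.

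The spread of the abundant members was nonetheless larger than counting error. The coefficient of variation was 23.7% for Hes1 where counting alone gives 4.53%, 26.6% for Nrarp against 10.9%, and 19.6% for Jag1 against 5.39%. For Notch1 it was 14.8% against 4.98%, and for Notch2 10.6% against 2.09%. Jag2 and Notch3 varied by 10.7% and 10.6%, less than the 13.7% and 13.5% of counting alone. Of the genes with few reads, Hey1 varied by 74.1% where counting gives 37.8%, and Dll1 by 39.1% where it gives 31.6%. Without the filter on low counts the adjusted p of both was 0.961 in edgeR.

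**Figure D3:**
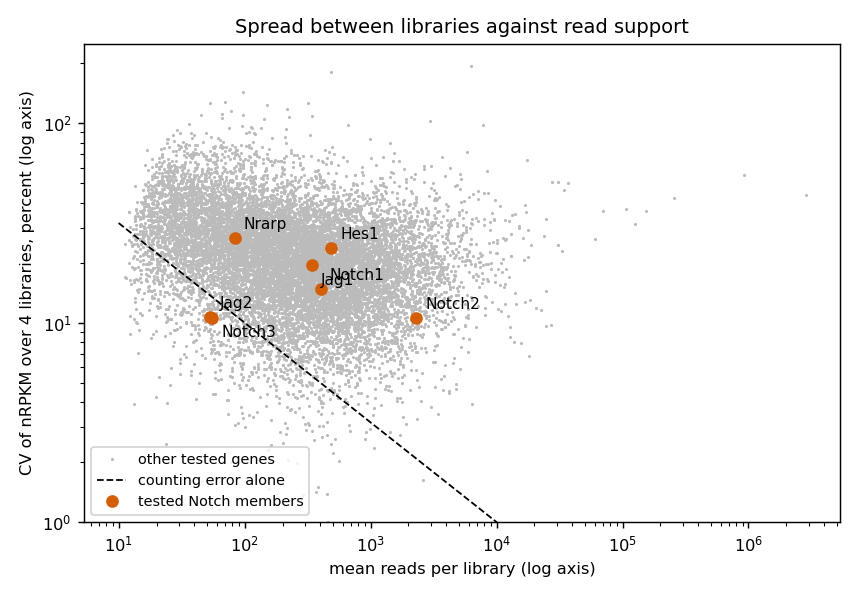
Coefficient of variation of nRPKM over the 4 libraries, in percent, against mean reads per library (both axes log) for all genes tested (grey) and the 7 tested Notch genes (orange), with the counting error drawn as a dashed line. Jag2 and Notch3 lie under the line, and the other 5 lie above it within the cloud of other genes.

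Around these genes, 38 of 60 other pathway genes averaged 1 nRPKM or more (63.3%), against 42.4% of all genes, and the median was 2.26 nRPKM. The machinery that cuts and relays the signal was present, while most other receptors, ligands and targets were near 0. In edgeR, 0 of the 44 tested among them were called, against 0.0152% of all tested genes, and 1 had an unadjusted p under 0.05, against 5.13%. In DESeq2, 0 were dispersion outliers, against 0.471%.

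**Figure D4:**
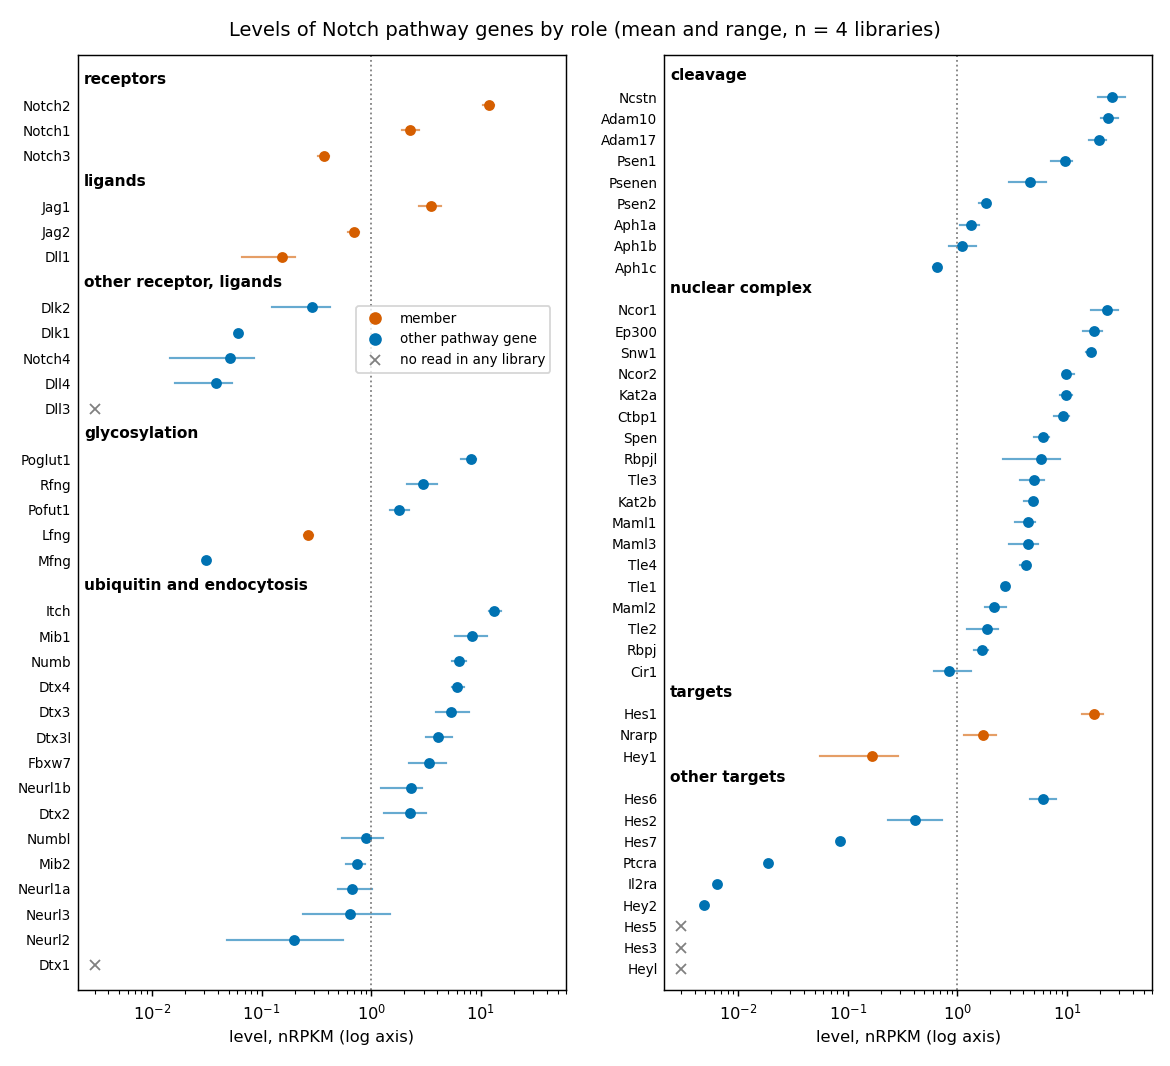
Mean level in nRPKM (log axis) of the 10 members (orange) and 60 other Notch pathway genes (blue) by role, with the range over 4 libraries as a line where every library had a read, a dotted line at 1 nRPKM and crosses for genes with no read. Cleavage and nuclear genes lie mostly right of 1 nRPKM and other targets mostly left of it.

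Cleavage genes reached 1 nRPKM for 8 of 9. The gamma-secretase subunit gene Ncstn had 25.9 ± 6.22 nRPKM, and the sheddase genes Adam10 and Adam17 had 23.7 ± 3.73 and 19.6 ± 3.04 (SD, n = 4). Of the nuclear genes 17 of 18 did, led by the corepressor gene Ncor1 (23.0 ± 5.03), the acetyltransferase gene Ep300 (17.4 ± 2.87) and the coactivator gene Snw1 (16.5 ± 1.21), with Cir1 at 0.836 ± 0.330. Snw1 overlaps another gene on the other strand over 44.3% of its exon bases. Rbpj itself had 1.85, 1.91, 1.43 and 1.55 nRPKM, and 24.3% of the 50-base words of its transcript occur in another annotated gene, so uniquely aligned reads may count it too low. Its paralog Rbpjl, which does not bind Notch, had 2.58, 8.55, 4.51 and 7.32 nRPKM. With the filter on low counts, Rbpjl was the one pathway gene with an unadjusted p under 0.05 in edgeR (adjusted p = 0.806). Without it Neurl3 and Dlk1 had one as well (adjusted p = 0.354 and 0.610, edgeR). Rbpjl was lowest in library 1, like the type II markers. Its adjusted p in edgeR was 0.984 without library 1, 0.991 without library 2, 0.989 without library 3 and 0.773 without library 4. Over all alternatives the adjusted p lay within 0.354 to 0.991. Its unadjusted p in edgeR was 0.124 without library 1, and 0.0393, 0.0134 and 0.0114 without libraries 2, 3 and 4. The part of type II cells in the level of Rbpjl was not tested.

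Genes of ubiquitin ligases and endocytosis reached 1 nRPKM for 9 of 15. The ligase gene Itch had 13.2 ± 1.56 nRPKM, Mib1, whose product lets ligands be internalised, had 8.36 ± 2.50, and Numb, an inhibitor of Notch, had 6.30 ± 0.945 (SD, n = 4). Of 4 glycosylation genes 3 did: Poglut1 (8.05 ± 1.11), the fringe gene Rfng (2.98 ± 0.772) and Pofut1 (1.81 ± 0.318). Rfng was thus the highest of the 3 fringe genes, with Lfng at 0.265 ± 0.0248 and Mfng at 0 to 2 reads. Of 5 further receptor and ligand genes 0 reached 1 nRPKM, and the highest were Dlk2 (0.291 ± 0.142), Dlk1 (0.0613 ± 0.0753) and Notch4 (0.0519 ± 0.0290). Of 10 genes listed as other targets 1 did, Hes6 (5.98 ± 1.44), a Hes family member known to oppose Hes1. Whether Notch controls Hes6 in these cells was not tested. Hes2 (0.413 ± 0.222) and Hes7 (0.0852 ± 0.0733) followed, and Hes3, Hes5, Heyl and Dtx1 had no read in any library.

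The genes whose levels over the 4 libraries were most like those of Hes1, the member with the widest log2 range among those with at least 20 reads in every library, were Hint3, Rexo2 and Kpna1. Their root mean square difference from Hes1 in centred log2(nRPKM + 1) was 0.02, 0.04 and 0.04. Hint3 had 8.60, 8.82, 5.63 and 5.20 nRPKM. Among 6583 genes with a mean of at least 5 nRPKM, 62 lay within 0.1, and with 4 libraries such likeness is a description only.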

How the data were processed

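PolyA RNA of 4 libraries was sequenced by the authors. Per the file headers, each deposited table holds a count, of the reads with a unique alignment in the gene model, and a size-factor-adjusted RPKM (nRPKM). GSNAP and mm9 were used per the submitters' processing notes; their versions, the gene annotation, the use of strand and any filter were not given in the sources used here. The deposited values equal the count times a library factor over a gene length, within rounding. Symbols were matched by Entrez identifier to RefSeq (GRCm38.p6) for 25035 of 28096 genes; identifiers without a symbol took 2.48% to 3.71% of reads.

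Spread was tested on counts with edgeR 4.0.16 (R 4.3.3; intercept only, TMM, filterByExpr, quasi-dispersion over its trended prior against F, Benjamini-Hochberg over all genes tested, 0.05) and checked on simulated counts. DESeq2 1.42.0 was an alternative. Pairs of genes were compared within libraries on log2(nRPKM + 1), which understates differences of low genes. Shared 50-base words and exon overlaps came from GENCODE M21. Named genes were the 10 members, the 3 highest and the unread genes of each pathway list, the 2 highest of each marker list, and the 3 genes most like the widest-ranging member; others were named after their values were seen. The members and lists were chosen with earlier results of these data known. Intervals cover counting error only. A few items are not reported here.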

Additional observations from a re-analysis of the deposited data

How the results depend on the processing

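The number of Notch genes called as varying was 0 under every alternative run: other size factors, no filter on low counts (where all 10 were tested, with a smallest p of 0.224 and adjusted p of 0.961 in edgeR), DESeq2, and leaving out each library. Over all genes, 2 calls became 66 without the filter, 62 as DESeq2 dispersion outliers, and 0 to 6 when a library was left out (0 without library 2 and 0 without library 3, where 640 and 619 genes passed 0.05 before adjustment). The 6 differences between pairs of genes kept their sign under each alternative, but their size depends on the pseudocount: with 0.1 in place of 1, the difference of Notch1 and Notch3 was 2.33, that of Jag1 and Jag2 2.16, that of Jag1 and Dll1 3.85 and that of Hes1 and Hey1 6.16 log2 units. Without library 1, which stood apart, Hes1 had a mean of 16.6 nRPKM, Notch2 of 11.97 and Jag1 of 3.54. With at least 10 reads of both genes required, Hes1 and Hey1 were compared in libraries 1 and 2 alone. The count of members at 1 nRPKM or more was 4 to 7 under other thresholds and scaling, and that of other pathway genes 32 to 45. TPM raised levels of all genes, by medians of 3.36, 2.49, 3.31 and 2.28 times in libraries 1 to 4. The rise was smaller in libraries 2 and 4, where mitochondrial ribosomal RNA took 35.1% and 38.9% of reads. It took 23.0% and 19.6% in libraries 1 and 3. The reason for the rise itself was not tested. Mean TPM was 51.0 for Hes1, 33.0 for Notch2, 9.79 for Jag1, 6.38 for Notch1, 4.92 for Nrarp, 2.01 for Jag2, 1.06 for Notch3, 0.768 for Lfng, 0.487 for Hey1 and 0.450 for Dll1. TMM scaling moved no mean level by as much as its SD. No paired analysis was possible because there was 1 group and hence no other group to pair its libraries with. Depth limits Dll1, Hey1 and Lfng, on 2 to 14 reads per library.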

Other observations

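Neuralized family genes, whose fly relative promotes endocytosis of Notch ligands, were not called as varying in edgeR (adjusted p = 0.996 for Neurl1b and 0.997 for Neurl1a). Neurl1b had 1.22, 2.30, 2.91 and 2.72 nRPKM in libraries 1 to 4, lowest in library 1 as the type II markers were. The part of type II cells in the level of Neurl1b was not tested. Neurl3 had 1.48, 0.240, 0.610 and 0.238 nRPKM on 78, 11, 33 and 10 reads, and Neurl2 had 13 reads in library 1 and 1 or 2 in each other library. Neurl1a had 0.534, 0.651, 1.01 and 0.501 nRPKM. Neither Neurl3 nor Neurl2 passed the filter on low counts. Without the filter the adjusted p in edgeR was 0.354 for Neurl3, 0.961 for Neurl2 and 0.862 for Neurl1b. Exons of Ctsa on the other strand cover 31.95% of those of Neurl2. The Notch ligand-like gene Dlk1 had 7, 14, 1 and 0 reads (adjusted p = 0.610 without the filter, edgeR). These genes were named after their values were seen.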
